A study of Mus musculus with 12 samples.

Results

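The nuclear-encoded genes of the mitochondrial respiratory chain were examined in RNA of mouse brain white matter. Members were the rows of the deposited table whose symbols begin with Nduf followed by a, b, c, s or v and a number, Sdha to Sdhd, Uqcr, Cox followed by a digit from 4 to 8 and a letter from a to c, or Atp5, with at least 10 raw counts in at least 3 of the 12 libraries. Of 82 symbols that matched, 78 passed, out of 24060 genes in the table, and all 78 were among the 14354 genes tested. By symbol, 36 belonged to complex I, 4 to complex II, 8 to complex III, 13 to complex IV and 17 to complex V. The name patterns leave out some subunits, such as Cox4i1 and Cyc1, and let in Atp5s and Atp5sl, which are not counted as core subunits of the ATP synthase. RefSeq lists Atp5s as Dmac2l and Atp5sl as Dmac2, and both stay in complex V here by symbol alone. The 4 that failed the minimum were Ndufa4l2, Cox7b2, Cox8b and Cox8c.

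The samples were male mice of the genotype Tie2-Cre:Rpl22-HA, in which Cre recombinase driven by Tie2 (Tek) regulatory sequence leads to a ribosomal protein, Rpl22, that carries a hemagglutinin (HA) tag. Tie2-driven Cre acts in endothelial cells and also in blood cells of the hematopoietic lineage, so the tagged ribosomes are not those of endothelia alone. Animals 489, 555 and 556 ate a control-fat diet (CFD) with 10% of its kcal as fat, and animals 516, 517 and 676 ate a high-fat diet (HFD) with 60%. From each of the 6 mice, 1 library came from an anti-HA pulldown of ribosomes (IP) and 1 from the input white matter, which gives 4 groups of 3 libraries. The ages of these animals are not in the sample labels. In such bulk RNA, fewer cells of a type and less RNA per cell cannot be told apart.

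Complexes I to IV pass electrons from NADH and succinate through ubiquinone and cytochrome c to oxygen, and complexes I, III and IV pump protons that drive ATP synthesis by complex V. Most subunits are encoded in the nucleus, translated on cytosolic ribosomes and imported, so their messenger RNA can be collected on tagged ribosomes. Several complex IV subunits exist as ubiquitous and muscle or testis isoforms, and brain endothelial cells are known for their many mitochondria.

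Library totals lay between 19567186 and 33660708 counts, and members took 70712 to 188878 counts per library. The ribosomal RNA precursor Rn45s took 38.7% to 42.3% of the counts in CFD IP, 17.1% to 19.1% in HFD IP and 6.34% to 14.2% in the inputs. The 18 endothelial markers together measured 77.5, 63.0 and 382 CPM (counts per 1e+06 counts of scaled library size) in CFD IP of animals 489, 555 and 556. They measured 41.0 to 120 CPM in HFD IP and 38.9 to 85.0 in the inputs. The 12 neuronal markers measured 12420 to 14630 CPM in CFD IP and 13803 to 16163 in HFD IP. In the inputs these neuronal markers measured 12142 to 17639 CPM in CFD and 11360 to 13715 in HFD. Of the 18 endothelial markers, 2 were at 0 counts in all 3 CFD inputs, the claudin gene Cldn5 and the transcription factor gene Foxq1. In at least 1 CFD input, 10 of the 18 were at 0 counts, while Kdr had 98 to 145 counts and Slc2a1 101 to 681. Between CFD IP and input, 10 of the 16 endothelial markers tested were fitted higher (median 1.29 on the log2 scale), and 0 passed the test by edgeR, with 2 higher and 0 lower at an unadjusted p under 0.05. Between HFD IP and input, 8 of the 16 were fitted higher (median -0.15). Of these 16, 0 passed the test by edgeR and 0 had an unadjusted p under 0.05. The endothelial label of the IP thus rests on the pulldown, and neuronal markers were abundant in it. No library repeated another: replicates differed by more than counting error alone, which is all this check covers.

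The promoters of these genes are shown because several hold short motifs known from genes of the respiratory chain. RefSeq promoter windows on GRCm38.p6, from 250 bases before to 50 bases after the annotated start, were found for 67 of the 78 members. The NRF1-like core GCGCATGCG, read on both strands, occurred in 8 members, or 11.9%, against 1.95% of 27025 genes with a window. The ETS-like core CCGGAAG occurred in 16 members, or 23.9%, against 9.93% of all genes. The YY1-like core AAGATGGC occurred in 11 members, or 16.4%, against 3.19% of all genes. These matches clustered: 9 of the 12 YY1-like matches in member windows, or 75.0%, began 20 to 39 bases after the start, where 20.4% of the 927 matches in all windows began. That core contains the letters ATG, and Atp5sl, which has more than 1 window, held 2 of the 12 matches. No match of 1 motif overlapped another in the member windows. The 180 bases before the start are printed for 3 genes with the NRF1-like core, for 1 with both other cores and for a pair with none in these bases, namely the gene with the highest level and the gene with the lowest, with matches in capitals. The ETS-like match of Cox6a1 is on the other strand and reads CTTCCGG.
Cox6a1 (chr5:115348959-115349138, minus strand; NRF1-like and ETS-like): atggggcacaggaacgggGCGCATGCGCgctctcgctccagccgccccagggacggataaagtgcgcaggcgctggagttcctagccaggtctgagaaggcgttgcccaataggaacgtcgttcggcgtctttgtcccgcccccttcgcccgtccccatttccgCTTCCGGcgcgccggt
Ndufa11 (chr17:56717582-56717761, plus strand; NRF1-like): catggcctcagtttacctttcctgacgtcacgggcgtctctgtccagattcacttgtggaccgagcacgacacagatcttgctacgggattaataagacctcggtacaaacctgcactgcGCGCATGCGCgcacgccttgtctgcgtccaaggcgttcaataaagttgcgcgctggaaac
Atp5k (chr5:108434400-108434579, minus strand; NRF1-like): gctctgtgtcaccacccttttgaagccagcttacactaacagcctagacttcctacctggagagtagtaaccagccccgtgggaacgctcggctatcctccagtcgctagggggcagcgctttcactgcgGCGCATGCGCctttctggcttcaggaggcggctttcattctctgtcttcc
Atp5j (chr16:84834977-84835156, minus strand; YY1-like and ETS-like): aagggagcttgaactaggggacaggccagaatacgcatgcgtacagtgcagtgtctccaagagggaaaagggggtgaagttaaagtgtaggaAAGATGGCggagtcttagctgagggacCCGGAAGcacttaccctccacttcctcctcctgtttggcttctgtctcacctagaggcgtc
Atp5b (chr10:128083127-128083306, plus strand; none): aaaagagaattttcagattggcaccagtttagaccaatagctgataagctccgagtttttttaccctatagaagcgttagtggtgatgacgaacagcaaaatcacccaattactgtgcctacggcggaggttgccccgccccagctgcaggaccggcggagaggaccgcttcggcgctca
Cox7a1 (chr7:30183991-30184170, plus strand; none): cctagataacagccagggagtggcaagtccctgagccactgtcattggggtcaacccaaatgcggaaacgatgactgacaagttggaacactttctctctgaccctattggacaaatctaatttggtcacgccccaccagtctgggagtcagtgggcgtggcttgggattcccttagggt
A match is a run of letters and not a measured binding site. In the printed windows, the dinucleotide CG occurred 22 times in Cox6a1, 16 in Ndufa11, 9 in Atp5k, 5 in Atp5j, 11 in Atp5b and 4 in Cox7a1. Atp5j has another window, not printed, with none of the motifs in its 180 bases before the start and CG 24 times. The members with the ETS-like core had a median level of 62.6 CPM per kb, and the members without it 43.1 CPM per kb. For the NRF1-like core these medians were 46.8 and 44.4 CPM per kb, and for the YY1-like core 45.8 and 43.7 CPM per kb.

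Levels were compared between genes as CPM per kb of gene length, averaged over the 4 group means. The highest member was Atp5b, the catalytic beta subunit of the ATP synthase, at 547 CPM per kb, with libraries between 313 and 733. It was followed by Cox8a, a small structural subunit of complex IV, at 224, by Cox6a1, another structural subunit, at 207, and by Uqcr10, a small subunit of complex III, at 183 CPM per kb. The next were Atp5a1, the alpha subunit, at 164, and Ndufa4 at 158 CPM per kb, and the libraries of these 5 genes overlapped, so that their order among themselves is not resolved. Ndufa4 was named as a complex I subunit and was later assigned to complex IV. Within complex II, Sdha, the flavoprotein that oxidizes succinate, was highest at 96.1 and Sdhb, its iron-sulfur partner, lowest at 27.9 CPM per kb. The membrane anchors Sdhc and Sdhd lay between them at 55.8 and 39.6 CPM per kb. Atp5b, Atp5a1 and Sdha together made up 28.6% to 40.7% of the members' CPM in a library.

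**Figure D1:**
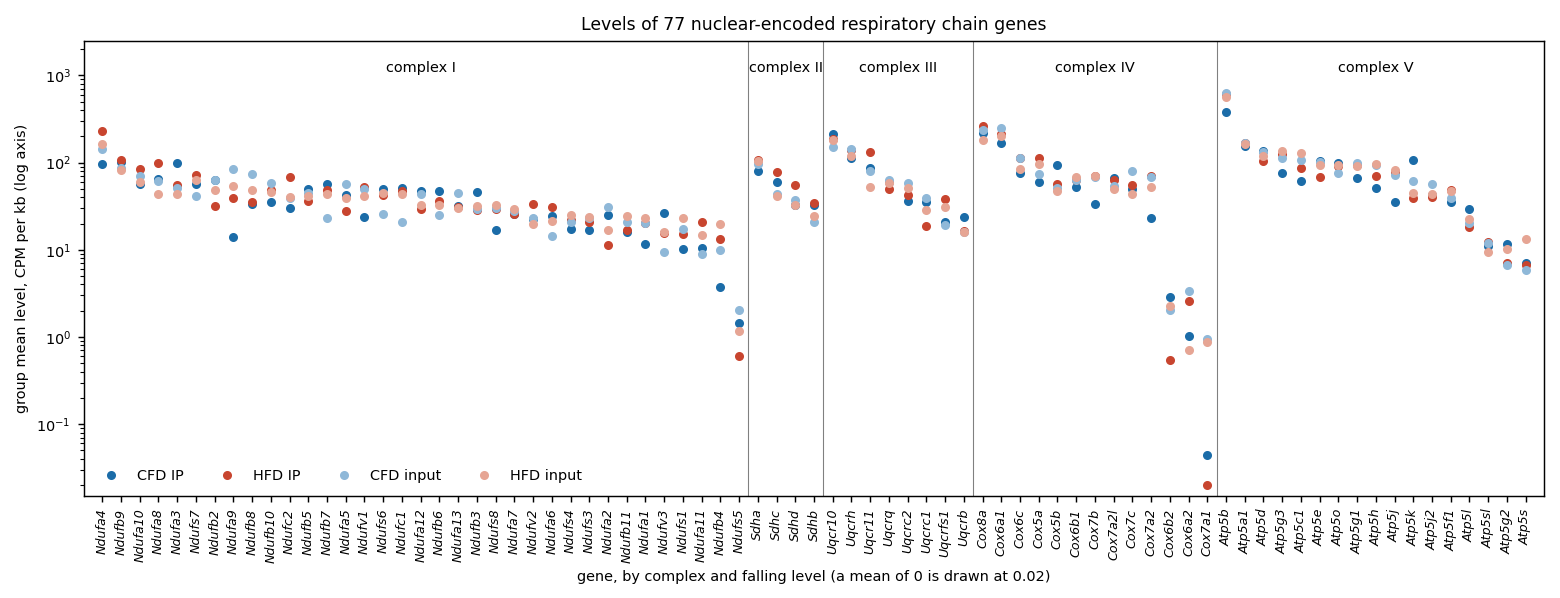
Group mean level of each of 77 of the 78 genes in CPM per kb on a log axis, by complex and falling level; the 4 colours are the 4 groups of 3 libraries. Atp5b stands highest at 547 CPM per kb on average, and Cox7a1, Cox6a2, Cox6b2 and Ndufs5 stand below all the other members, between 0.469 and 1.93.

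The lowest members were isoforms typical of other tissues and 1 small complex I subunit, Ndufs5. Cox7a1, the heart and muscle isoform of subunit VIIa, averaged 0.469 CPM per kb. It had 0, 1 and 0 counts in CFD IP (animals 489, 555 and 556), 0 in all 3 HFD IP libraries, 0, 11 and 18 in CFD input, and 9, 10 and 10 in HFD input (animals 516, 517 and 676). The ubiquitous partner Cox7a2 averaged 54.0 CPM per kb. Cox6a2, the muscle isoform of subunit VIa, averaged 1.93 CPM per kb with 0 to 176 counts per library, against 207 CPM per kb for Cox6a1. Cox6b2, the testis isoform of subunit VIb, averaged 1.93 CPM per kb with 0 to 111 counts, against 62.1 for Cox6b1. In every library, the ubiquitous isoform of each of these 3 pairs was the higher by level per length.

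Among the genes for the c subunit of the proton-carrying ring, which encode the same mature protein, Atp5g3 averaged 113, Atp5g1 88.0 and Atp5g2 8.92 CPM per kb. Cox7a2l, a factor that joins complexes III and IV into supercomplexes, averaged 58.4 and Cox7b, a further complex IV subunit, 60.3 CPM per kb. Of the genes under the minimum, Ndufa4l2, a paralog of Ndufa4 known from pericytes and hypoxia, had 73 counts in the IP of animal 517, 26 in the input of animal 676, 2 in the IP of animal 556 and 1 in the input of animal 516. Cox8b, the muscle isoform of subunit VIII, had 6 and 2 counts in the IP and input of animal 676 alone. Cox7b2 had 11 counts in the HFD IP of animal 676 and 1 in the HFD input of animal 516, and Cox8c had 0 counts in every library. The 13 striated muscle markers summed to 8.79 to 55.5 CPM per library.

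**Figure D2:**
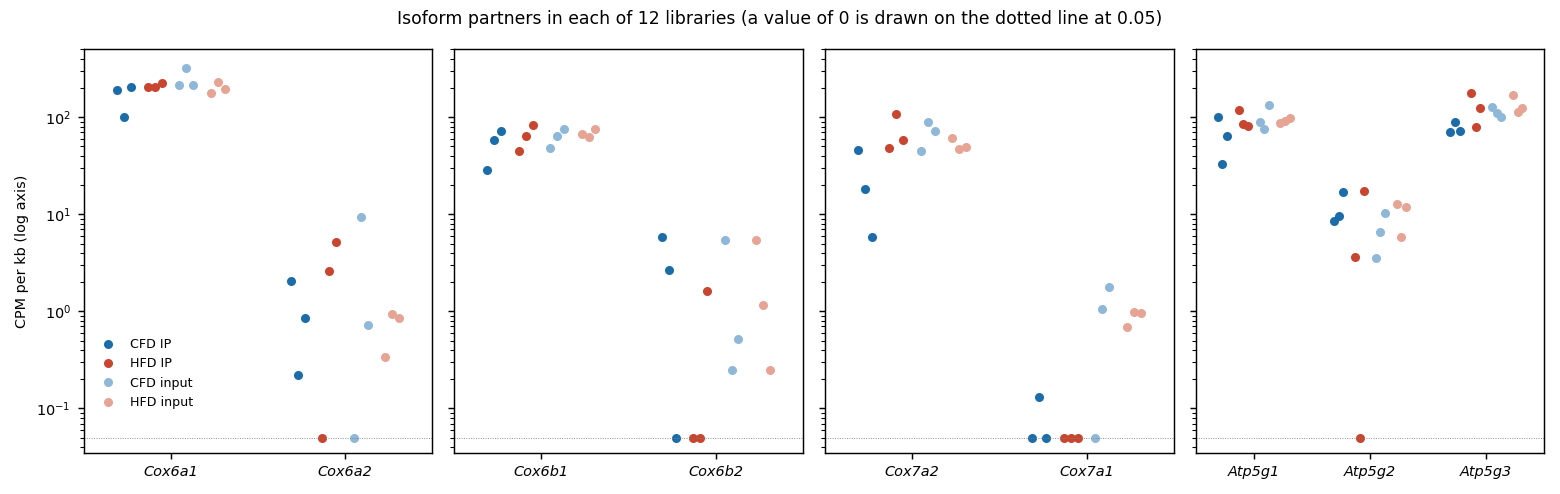
Level in CPM per kb (log axis) of isoform partners in each of the 12 libraries, coloured by group; points on the dotted line are libraries with 0 counts. Within each set of partners, Cox6a1 lies above Cox6a2, Cox6b1 above Cox6b2, Cox7a2 above Cox7a1, and Atp5g1 and Atp5g3 above Atp5g2 in every library.

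Some of these counts are uncertain because the genome holds near-identical copies. A copy of at least 95% identity over at least 50% of the transcript was found elsewhere in GRCm38 for 20 of the 78 members. Atp5l, the g subunit of the ATP synthase, had 10 such copies, Atp5h, Cox7c and Uqcrb had 3 each, and Atp5g2 had 2, the closest at 100% identity. Ndufs5, the lowest complex I member at 1.31 CPM per kb, had 1 copy at 99.6% identity, so its low level is uncertain. How reads that fit more than 1 copy were counted is not given in the sources used here. The order of levels was otherwise alike in all groups: over the 78 members, log2 CPM per kb correlated between pairs of groups at Pearson's r of 0.894 to 0.950, as a description of genes that share libraries.

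The central comparison asked how HFD altered RNA on the tagged ribosomes. The summed CPM of the respiratory chain genes was higher in HFD IP than in CFD IP, without any single gene passing the test. Their CPM summed to 4183, 3938 and 3965 in the CFD IP libraries of animals 489, 555 and 556, and to 6135, 4438 and 5011 in the HFD IP libraries of animals 516, 517 and 676. The groups did not overlap, and the HFD library of animal 516 was the highest. This separation of the sums rested on Atp5b, the most abundant member. Without Atp5b, the sum of HFD animal 517 lay below that of CFD animal 489. An exact permutation test of 3 against 3 libraries cannot go below a p of 0.1, so these sums are given as values. The inputs measured 4677, 5649 and 4779 CPM in CFD and 5251, 5036 and 4146 CPM in HFD and overlapped. As a share of all counts, members made up 0.240% to 0.287% of CFD IP and 0.429% to 0.567% of HFD IP. Once Rn45s was taken out of the total, these shares were 0.416% to 0.472% and 0.522% to 0.683%, and they still did not overlap. With Rn45s and Lars2 removed before the fit, the median log2 fold change of the members between the IP groups was 0.21, against 0.24 with them, and 0 members were called by edgeR in either fit.

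By complex, the sums of complexes IV and V did not overlap between the IP groups and those of the other 3 did. Complex IV summed to 455 to 556 CPM in CFD IP and 589 to 800 in HFD IP. This gap also hung on single genes: without Cox7a2 alone, or without Cox6a1 alone, the sums of complex IV overlapped between the IP groups. Complex V summed to 1476 to 1945 CPM in CFD IP and 1967 to 2420 in HFD IP, and 2184 to 2565 in CFD input. The narrow gap of complex V rested on Atp5b, and without Atp5b its sums overlapped between the IP groups. Of its 17 members, 9 were fitted higher in HFD IP and 8 lower. Complex I summed to 850 to 1284 CPM in CFD IP and 1033 to 1842 in HFD IP, complex II to 248 to 576 and 390 to 600, and complex III to 336 to 463 and 291 to 514 CPM.

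In the fit across all genes, 0 of the 78 members had an adjusted p under 0.1 by edgeR's quasi-likelihood test, where 0.0557% of all genes tested were called. Of the members, 48 were fitted higher in HFD IP and 30 lower, with a median log2 fold change of 0.24, against 0.03 over all genes tested. At an unadjusted p under 0.05 there were 7 members higher, where 6.08% of all genes were, and 0 lower, where 4.82% were. In 8 members, or 10.3%, every HFD IP library was above every CFD IP library, against 5.94% of all genes, and in 0 members was the reverse the case, against 4.66%. Among these 8 were Atp5b, Atp5c1, Atp5j, Cox5a, Cox7a2, Cox7b and Ndufa4, and none of the 8 has a near-identical copy. With DESeq2, 1 of the 78 members was called. The median log2 change of the members was 0.05 without animal 516, so that 1 animal accounts for most of its size. The 95% interval of a single member reached 1.33 on the log2 scale to either side in the median over members, and it was narrower for abundant members such as Atp5b.

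**Figure D3:**
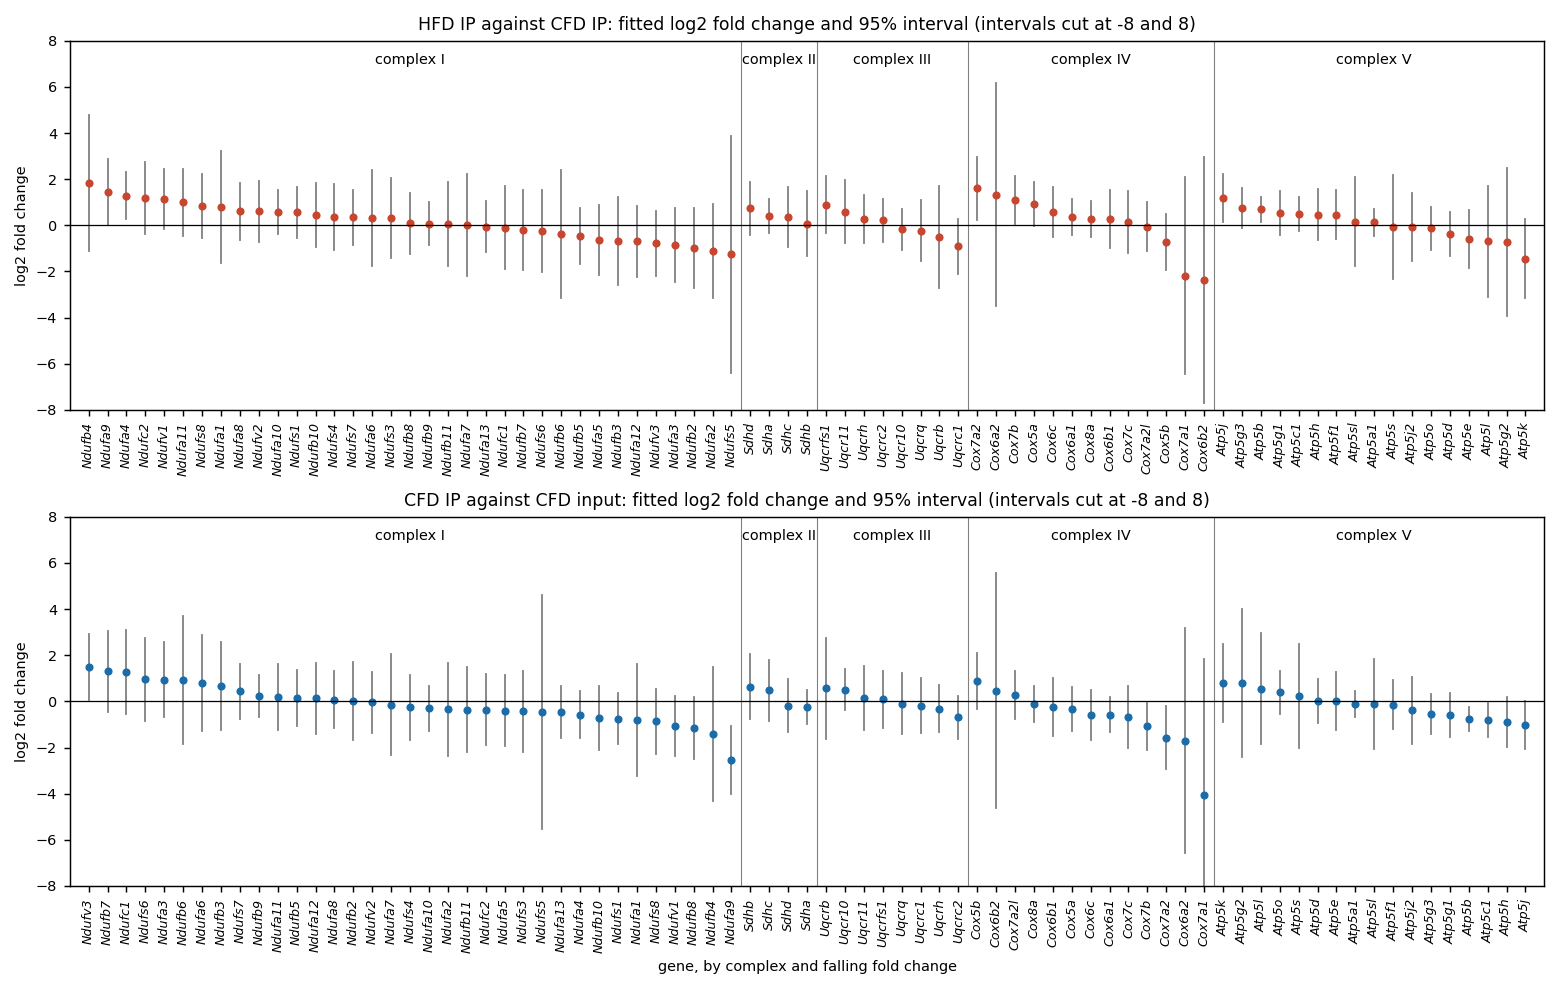
Fitted log2 fold change (points) and 95% interval (lines) of each of 77 of the 78 genes, by complex, for HFD IP against CFD IP (upper) and CFD IP against CFD input (lower). In the upper panel 47 points lie above 0 and in the lower panel 31; no gene passed the test in either.

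Atp5b, the highest member, measured 682, 588 and 854 CPM in CFD IP and 1335, 983 and 1107 CPM in HFD IP. In the inputs it measured 1212, 1377 and 999 CPM in CFD and 1251, 1072 and 882 CPM in HFD. The CFD IP group was thus below both the HFD IP group and the CFD input group without overlap, and the HFD fractions overlapped. Its log2 fold change between the IP groups was 0.69 ± 0.25 (SE), with a 95% interval from 0.16 to 1.22 and an adjusted p of 0.363 by edgeR. The alpha subunit gene Atp5a1, its partner in the catalytic hexamer, measured 460, 294 and 379 CPM in CFD IP and 422, 340 and 474 CPM in HFD IP, which overlapped, and its log2 fold change was 0.13 ± 0.28 (SE).

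Ndufa4 measured 64.0, 48.0 and 28.7 CPM in CFD IP and 205, 67.7 and 69.2 CPM in HFD IP. Animal 516 was the high library, and the lowest HFD IP library was only a little above the highest CFD IP library. The log2 fold change was 1.28 ± 0.49 (SE) with an adjusted p of 0.370 by edgeR. Cox7a2 measured 34.5, 13.8 and 4.37 CPM in CFD IP and 36.3, 80.6 and 43.7 CPM in HFD IP, with a log2 fold change of 1.61 ± 0.66 (SE). Atp5j, coupling factor of the peripheral stalk, measured 24.9, 36.4 and 18.8 CPM in CFD IP and 54.4, 69.3 and 56.0 CPM in HFD IP, which were well apart, with a log2 fold change of 1.17 ± 0.50 (SE). Cox5a, a nuclear-encoded complex IV subunit, differed by 0.92 ± 0.47 (SE) on the log2 scale, and Cox7b by 1.08 ± 0.50 (SE). The gamma subunit gene Atp5c1 of the central stalk had the smallest difference of those named at 0.49 ± 0.35 (SE).

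**Figure D4:**
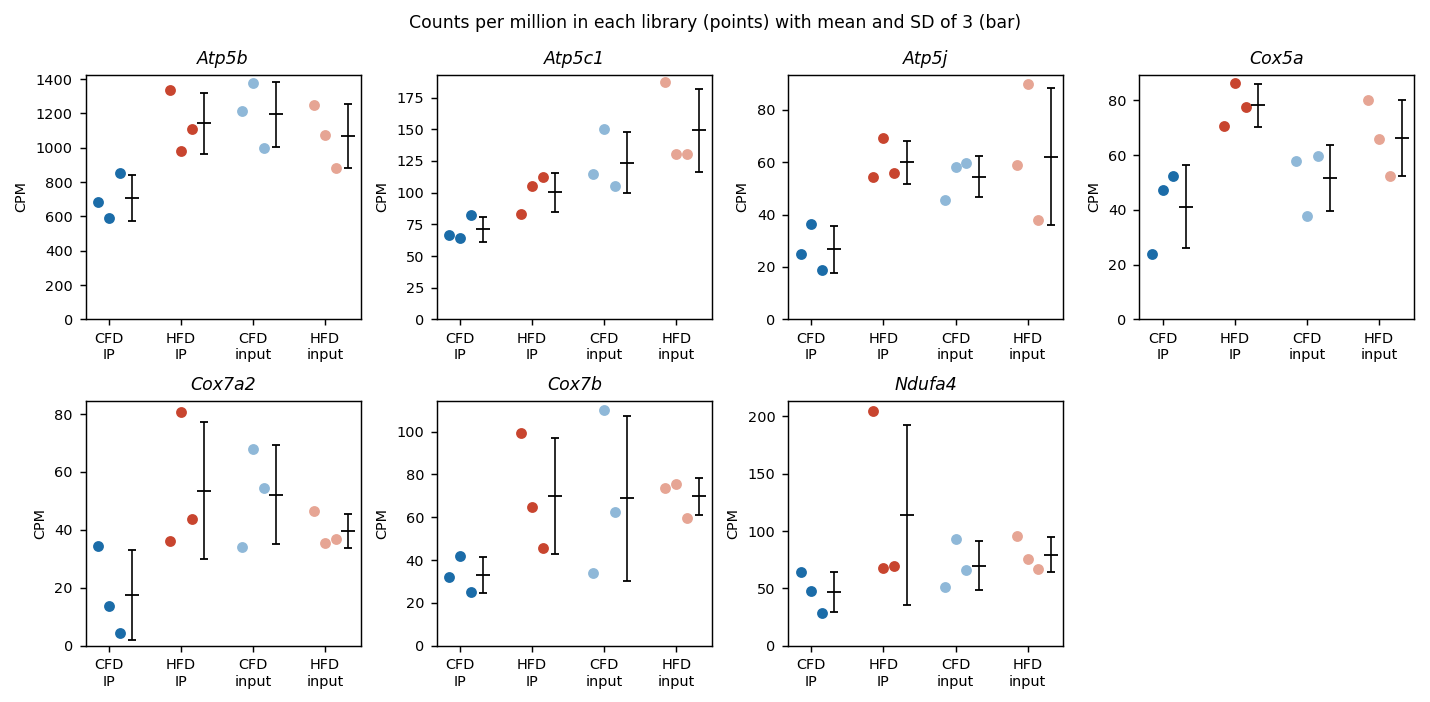
CPM in each library (points, animals in rising number within a group) with the mean and SD of 3 libraries (bars) for 7 of the 8 genes whose HFD IP libraries all lay above the CFD IP libraries; each panel starts at 0. Animal 516 is the high HFD IP point for Ndufa4 at 205 CPM, and the inputs overlap between diets.

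On the lower side, Atp5k, the e subunit of the ATP synthase, measured 17.4, 45.2 and 31.2 CPM in CFD IP and 10.8, 5.98 and 17.6 CPM in HFD IP. These groups overlapped by 1 library, the log2 fold change was -1.45 ± 0.83 (SE), and the gene has a near-identical copy. Uqcrc1, a core subunit of complex III, showed -0.91 ± 0.57 (SE) on the log2 scale, and Cox5b, the zinc-binding subunit of complex IV, -0.74 ± 0.59 (SE). The other core subunits described here overlapped between the groups. In complex I, the log2 fold change was 1.15 ± 0.63 (SE) for Ndufv1, which binds the flavin that accepts electrons from NADH, 0.56 ± 0.53 for Ndufs1, the largest iron-sulfur subunit, and 0.34 ± 0.57 for Ndufs7, which carries the last iron-sulfur cluster. In complex II it was 0.40 ± 0.35 for Sdha, 0.06 ± 0.68 for Sdhb, 0.35 ± 0.63 for Sdhc and 0.74 ± 0.55 for Sdhd. In complex III it was 0.21 ± 0.45 for Uqcrc2, the other core protein, and 0.89 ± 0.60 for Uqcrfs1, the Rieske iron-sulfur protein. Longer members tended to have the higher fold changes, with a Spearman's rho of 0.37 across the 78 genes, which share their libraries.

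The comparison of IP with input within CFD asked which transcripts the tagged ribosomes held more or less of than the tissue. It uses the same CFD IP libraries as the comparison of the diets, so the results of both are not independent. In CFD IP, 31 members were fitted higher than in input and 47 lower, with a median log2 fold change of -0.18 against -0.01 over all genes. This median was -0.37 without animal 489, -0.090 without 555 and -0.12 without 556. By edgeR's quasi-likelihood test 0 of 78 members were called, where 0.188% of all genes were. At an unadjusted p under 0.05, 1 member was higher, a smaller share than the 5.94% of all genes. By the same measure 5 were lower, close to the 5.88% of all genes. In 9 members, or 11.5%, all CFD IP libraries lay below all CFD inputs, against 8.72% of all genes, and in 1 member, Ndufv3, all lay above, against 6.43%. The 9 were Atp5b, Atp5c1, Atp5g3, Atp5h, Atp5j, Cox6a1, Cox7c, Ndufa9 and Ndufb8, and 2 of them have near-identical copies.

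Ndufa9, an accessory subunit at the joint of the 2 arms of complex I, had the smallest p of the members in this comparison. Its CPM was 14.4, 37.8 and 3.92 in CFD IP and 49.2, 222 and 58.9 in CFD input, with 19.7, 73.7 and 60.5 in HFD IP and 68.3, 75.3 and 72.4 in HFD input. All CFD IP libraries were below all CFD inputs, the input of animal 555 was the highest, and the HFD fractions overlapped. The log2 fold change in CFD was -2.56 ± 0.71 (SE) with an adjusted p of 0.188 by edgeR. With the animal as a replicate block, which pairs the IP and input of 1 mouse, the log2 fold change was -2.73 with an adjusted p of 0.0132, and the gene was called. It was also called by DESeq2, with an adjusted p of 0.0148, by the likelihood ratio test, with 0.0580, and with no filter on low counts, with 0.00299. Over its 14 alternatives the log2 fold change stayed between -2.76 and -2.38 and the adjusted p ran from 0.00299 to 0.396.

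Atp5b had a log2 fold change of -0.76 ± 0.25 (SE) between CFD IP and input with an adjusted p of 0.269 by edgeR, and Atp5c1 one of -0.80 ± 0.36 (SE). Cox7a2 had one of -1.57 ± 0.66 (SE). On the higher side, Ndufv3, a small accessory subunit near the flavin site, measured 33.7, 56.7 and 36.1 CPM in CFD IP and 11.6, 14.9 and 18.3 CPM in CFD input. Its groups were well apart and its log2 fold change was 1.5 ± 0.69 (SE), with an adjusted p of 0.405 by edgeR. Ndufb7, an accessory subunit of the membrane arm, had a log2 fold change of 1.30 ± 0.85 (SE) that became -0.02 without animal 555, whose input held 1.73 CPM against 18.4 and 16.6 in the other two. Cox5b, with 2 near-identical copies, had one of 0.90 ± 0.59 (SE).

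The comparison of IP with input was also made within HFD. By edgeR's quasi-likelihood test 0 of 78 members were called, where 0.0139% of all genes were, and 41 members were fitted higher and 37 lower, with a median log2 fold change of 0.04 against -0.01 over all genes. The sign of this median changed with the animals, to -0.12 without 676 and -0.038 without 516, and it was 0.15 without 517. At an unadjusted p under 0.05, 0 members were higher, where 4.68% of all genes were, and 1 was lower, where 1.83% were. The HFD IP libraries lay above all HFD inputs for 2 members, Cox7c among them, or 2.56% against 6.13% of all genes, and below them for Atp5c1 and Cox7a1, 2 members against 7.98%. Cox7a1, also the 1 lower member at an unadjusted p under 0.05, met the minimum for members through input libraries alone. That fixed its direction, so nothing is read from it or from its place in these counts. For Ndufa8, an accessory subunit of complex I, the log2 fold change was 1.21 ± 0.60 (SE), and for Uqcr11, a small subunit of complex III with near-identical copies, it was 1.33 ± 0.67 (SE). In both, animal 516 carried the difference: Ndufa8 measured 148 CPM in its IP against 41.3 and 31.6 in the other HFD pulldowns, and Uqcr11 121 CPM against 12.9 and 39.2. On the log2 scale Atp5c1 showed -0.58 ± 0.35 (SE) and Ndufs1 -0.60 ± 0.53 (SE).

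The comparison of the inputs asked how diet altered the whole white matter. By edgeR's quasi-likelihood test 0 of 78 members were called, where 0% of all genes were, and 0 had an unadjusted p under 0.05, where 1.09% of all genes were higher and 0.941% lower. Members split into 38 fitted higher and 40 lower in HFD, with a median log2 fold change of -0.05 against -0.00 over all genes, and of 0.084 without animal 555 and 0.011 without 556. All HFD inputs lay above all CFD inputs for Ndufb4, Ndufb7, Ndufv3 and Uqcrfs1, 4 members or 5.13% against 6.05% of all genes, and below them for Cox7c, Cox8a and Ndufb8, 3 members or 3.85% against 4.33%. These shares were close to those of all genes. For Uqcrfs1 the log2 fold change was 0.67 ± 0.60 (SE), for Ndufv3 0.76 ± 0.68 and for Ndufc1, a small complex I subunit, 1.06 ± 0.88. Cox8a had one of -0.39 ± 0.38 (SE), Cox7c, a further small complex IV subunit, one of -0.85 ± 0.65, and Ndufa13, an accessory complex I subunit also known as GRIM-19, one of -0.58 ± 0.54.

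The interaction asked whether the ratio of IP to input differed between diets. By edgeR's quasi-likelihood test 0 of 78 members were called, where 0% of all genes were. At an unadjusted p under 0.05 there were 3 members with the larger ratio in HFD, where 3.15% of all genes were, and 0 with the larger ratio in CFD, where 2.22% were. Of the members, 46 had the larger ratio in HFD and 32 in CFD, with a median log2 difference of 0.20 against 0.06 over all genes. The median was 0.019 without animal 676 and 0.12 without 555. The 3 were Atp5b, with a log2 difference of 0.85 ± 0.36 (SE) and an adjusted p of 0.872 by edgeR, Cox7a2 with 2.0 ± 0.92 and Ndufa9 with 2.07 ± 0.96. On the other side stood Ndufv3 with -1.54 ± 0.97 (SE), Ndufc1 with -1.17 ± 1.23 and Ndufb7 with -1.13 ± 1.18, the last of which became 0.19 without animal 555. In 1 member, Cox7c, the ratio of IP to input had 1 sign in all CFD animals and the other sign in all HFD animals, as it did in 2.45% of all genes. The interaction shares its libraries with the comparisons above and adds no further samples.

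The libraries of a group differed more in the pulldowns than in the inputs. The ratio of the highest to the lowest of 3 libraries had a median over members of 2.75 in CFD IP, 2.41 in HFD IP, 1.89 in CFD input and 1.47 in HFD input. All genes tested had wider medians of 6.02, 5.16, 3.18 and 2.30 in the same order. In these medians a gene with no counts in a library ranks as widest, and members and all genes were not matched by level. For each gene, the larger of the CFD and HFD ratios was taken in each fraction. By this measure the spread was wider in IP than in input for 67 of 78 members, or 85.9%, and for 66.3% of all genes. Genes with no counts in a library of both fractions were scored as not wider. In CFD IP, 3157 of 14354 genes lacked counts in a library, against 3 of 78 members, so these shares cannot be compared. The spread was also wider for members of low level: in CFD IP the median ratio was 3.64 for the lower 39 by mean CPM and 2.23 for the upper 39.

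**Figure D5:**
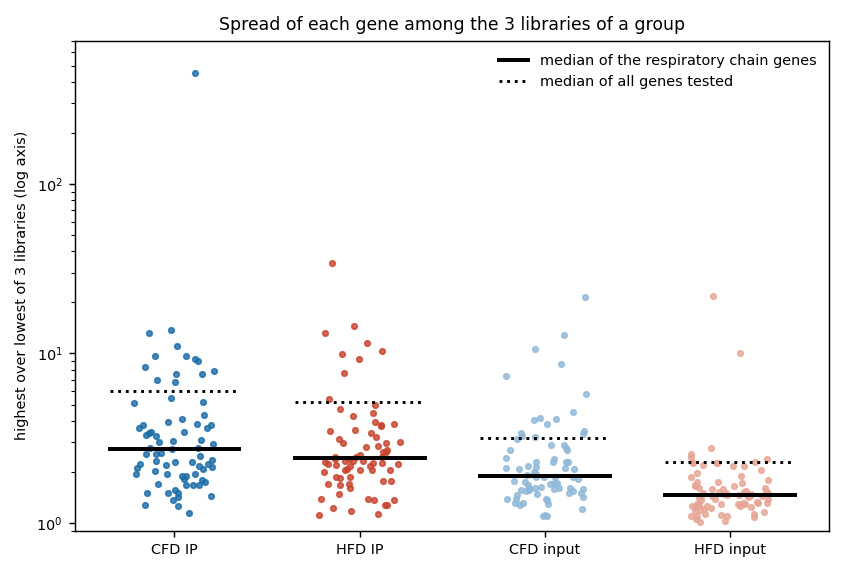
Ratio of the highest to the lowest CPM among the 3 libraries of a group (log axis) for each gene with counts in all 3, by group; solid lines are the medians of the 78 genes and dotted lines those of all genes tested. The members' median falls from 2.75 in CFD IP to 1.47 in HFD input and lies below that of all genes in every group.

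The widest case was Ndufb6, an accessory subunit of the membrane arm of complex I, with 4, 1571 and 3 counts in CFD IP, or 0.207, 75.9 and 0.168 CPM, a ratio of 451. Its inputs held 9.85 to 24.2 CPM, so that 1 pulldown was far above and 2 were far below the tissue. Ndufb9, another accessory subunit, was the narrowest in the same group at 63.0, 62.7 and 71.7 CPM, a ratio of 1.14. In HFD IP, Atp5l was widest with 14, 501 and 366 counts, a ratio of 34.1, and Cox6a1 narrowest at 110, 108 and 121 CPM, a ratio of 1.12. In the inputs, Cox6b2 was widest with ratios of 21.6 in CFD and 21.7 in HFD, Atp5a1 narrowest in CFD at 387, 424 and 410 CPM, a ratio of 1.09, and Ndufb3, an accessory complex I subunit with a near-identical copy, narrowest in HFD at 16.6, 16.6 and 16.8 CPM, a ratio of 1.01. The highest library of HFD IP was that of animal 516 for 35 members, 676 for 27 and 517 for 16.

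The other genes of the pathway gave no call in any of the 5 comparisons. Of 10 further electron transport and ATP synthase subunits outside the name patterns, 7 were tested, and their median log2 fold change was 0.16 in HFD IP against CFD IP and -0.34 in CFD IP against input. Cox4i1, the largest nuclear-encoded subunit of complex IV, had one of 0.04 ± 0.33 (SE) between the IP groups. In HFD IP against CFD IP, 6.08% of all genes were higher and 4.82% lower at an unadjusted p under 0.05. Of 43 assembly factors tested, 4 were higher and 2 lower by that measure, with a median of 0.14. The 18 genes of the tricarboxylic acid cycle had 0 higher and 0 lower with a median of 0.10, and the 20 of mitochondrial import and inner membrane had 1 higher and 0 lower with a median of 0.17. Of 13 regulators, 1 was higher and 4 were lower at an unadjusted p under 0.05, where 6.08% and 4.82% of all genes were, with a median of 0.24. Their summed CPM was 423 to 534 in CFD IP and 296 to 383 in HFD IP, which did not overlap, although 8 of the 13 were fitted higher. The 1 that was higher was Tfb1m, a methyltransferase of mitochondrial ribosomal RNA. The 4 that were lower were Ppargc1b and Pprc1, coactivators of the PGC-1 family, Tfam, which packages mitochondrial DNA, and Polg, which copies it. Ppargc1a, the best known coactivator of these genes, showed 0.00 ± 0.37 (SE) on the log2 scale, and Nrf1, whose core motif is shown above, -1.77 ± 1.25 (SE).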

How the data were processed

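RNA was measured by sequencing in 12 libraries. The authors aligned paired-end reads to mm10 with STAR and, per the submitters' processing notes, used HTSeq, with versions and strand setting not given in the sources used here. Labels and methods name different library kits. The deposited counts are whole reads per gene and were not normalized. Gene lengths were derived from the counts and the deposited FPKM. The deposited normalized signal, counts scaled by the authors, was left aside. The log2 fold changes and p-values in the authors' table come from their own comparisons and were not used.

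The counts were fitted with edgeR 4.0.16 in R 4.3.3 (filterByExpr with a minimum count of 10, TMM scaling, glmQLFit on 4 group means over all 12 libraries, glmQLFTest). P-values were adjusted by Benjamini-Hochberg over 14354 genes and called under 0.1, as in the study. CPM refer to TMM-scaled library sizes. Each standard error was taken as the absolute log2 fold change over the root of F. The fit was tested on simulated counts. The members, gene lists and motifs were chosen with earlier results of these data known. Genes named were, per comparison, the 3 members of smallest p in each direction, the highest and lowest member of each complex, listed isoforms and core subunits, and the widest and narrowest member of each group. Genes whose groups do not overlap are named in addition, after their values were seen, as are 2 other lists' members. Results for 1 item are not reported here.

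The animal number pairs IP and input, which came from 1 mouse, and their deviations from the group mean correlated across genes at 0.00728 to 0.156. Labels give 3 animals per diet. Alternatives were DESeq2 1.42.0, the likelihood ratio test, RLE scaling, omission of the filter, removal of Rn45s and Lars2, an adjusted p under 0.05, each animal left out, a replicate block, and a fit to just the 6 libraries of a comparison.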

Additional observations from a re-analysis of the deposited data

Results flagged for a closer look

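Cox7c, a small subunit of complex IV, was the 1 of 78 members whose ratio of IP to input had 1 sign in every CFD animal and the opposite sign in every HFD animal. Its log2 ratio of IP to input was -0.69, -0.81 and -0.51 in CFD animals 489, 555 and 556, and 0.38, 0.36 and 0.17 in HFD animals 516, 517 and 676, a difference of 0.97 between the diet means. Its CPM lay between 16.7 and 25.6 in all 6 pulldowns, at 27.2, 44.0 and 36.0 in the CFD inputs and at 19.6, 19.6 and 20.1 in the HFD inputs, so that the inputs differed more than the pulldowns. The interaction in the fit was 1.0 ± 0.91 (SE) with an adjusted p of 0.941 by edgeR's quasi-likelihood test. Of all genes tested, 2.45% had opposite signs in the diets by the same rule. Cox7c has 3 near-identical copies in the genome, whose part in its counts was not tested.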

How the results depend on the processing

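With 3 libraries a group and wide spread in the pulldowns, the 95% interval of a gene's log2 fold change reached about 1.33 to either side in the median over members, less for abundant ones, and missing the threshold does not show equal levels. Counts of members called were 0 in all 5 comparisons and stayed 0 without each animal in turn (0 to 0). In CFD IP against input the count was 1, Ndufa9, with no filter, the likelihood ratio test, DESeq2 and the replicate block, and in HFD IP against CFD IP it was 1 with DESeq2. The cause was not tested. The block, with the animal pairing IP and input, changed no other call of a member, while the count over all genes in CFD IP against input went from 27 to 139.

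The median log2 change of members ran, with each animal left out, from 0.047 to 0.28 in HFD IP against CFD IP, from -0.37 to -0.090 in CFD IP against input, from -0.12 to 0.15 in HFD IP against input, from -0.16 to 0.084 in HFD against CFD input, and from 0.019 to 0.29 in the interaction. The sign of the median in HFD IP against input and in the inputs therefore depended on single animals: the former was -0.12 without 676 and -0.038 without 516, and the latter was 0.084 without 555 and 0.011 without 556. The lowest value was reached without animal 516 in HFD IP against CFD IP, without 489 in CFD IP against input and without 676 in the interaction. Ndufb7 ran from -0.021 to 1.99 in CFD IP against input and from -1.84 to 0.19 in the interaction, and reversed without animal 555 in both. The other genes of smallest p in each comparison kept their direction under every alternative run.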
